A study of Mus musculus with 4 samples.

Results

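The nuclear-encoded subunits of the mitochondrial respiratory chain were examined in RNA recovered with an antibody to the m6A reader YTHDF2. Members were chosen by gene symbol, with earlier results of these data known: the Nduf, Sdh, Uqcr, Cox4 to Cox8, Atp5, Cyc1 and Cycs names of the count table. Of 92 names that fitted, 6 pseudogene names were dropped, which left 86 genes of the 52550 in the table. RNA immunoprecipitation (RIP) was carried out on papain-dissociated retinas of wild-type C57BL/6 mice at postnatal day 0, when retinal ganglion cells are growing dendrites and photoreceptors are still being born. In each of 2 biological replicates, RNA taken before the pulldown (Input) and RNA recovered with anti-YTHDF2 antibody (RIP) were sequenced, 4 libraries in all. No group carried a mutation or a treatment. The methods of the study also name a control IgG pulldown, which was not analysed here, so the comparison gives the share of a transcript in the pulldown relative to its share in the retina, and not its binding over an unspecific antibody. Because the tissue was taken in bulk, fewer cells of a type and less RNA per cell cannot be told apart in the levels below.

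The respiratory chain sits in the inner mitochondrial membrane. Complex I oxidises NADH, complex II oxidises succinate, complex III passes electrons from ubiquinol to the small carrier cytochrome c, and complex IV passes them to oxygen. The ATP synthase uses the resulting proton gradient to make ATP. Most subunits are translated from nuclear genes, many from short mRNAs for small membrane proteins, and a few hydrophobic ones from mitochondrial DNA. YTHDF2 is a cytoplasmic protein that recognises N6-methyladenosine in mRNA and is known for hastening the decay of mRNAs it holds. Neural retina depends heavily on respiration, and inherited complex I defects are known for harming retinal ganglion cells.

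Total counts ranged from 19530226 to 39499994 per library. Most fell on 2 genes whose reads resemble ribosomal RNA, AY036118 and CT010467.1, with 55.5% and 55.0% of the Input counts and 85.3% and 87.8% of the RIP counts. Transcripts of the mitochondrial genome took 18.6% and 19.4% of Input counts and 0.578% and 0.522% of RIP counts. As a check of the tissue, the progenitor, photoreceptor, amacrine, horizontal and ganglion cell markers were found in every library, all 4 pigment epithelium markers (Rpe65, Tyr, Mlana, Pmel) were at 0 counts, and lens, blood and muscle markers each summed to at most 0.570 CPM (counts scaled to a common library size). The 3 endothelial markers (Pecam1, Cdh5, Kdr) were present, at 30.3 and 30.6 CPM in the inputs and 63.4 and 65.3 CPM in RIP, with 1 of them tested and none called. The 6 ganglion cell markers together stood at 43.8 and 34.1 CPM in the inputs and 16.5 and 16.7 CPM in RIP, and 1 of the 6 passed the test as lower. The 3 amacrine and horizontal markers stood at 27.9 and 36.4 against 18.1 and 18.3 CPM, with 1 lower. The 4 progenitor markers stood at 883 and 591 against 585 and 560 CPM, with 1 lower. The 3 photoreceptor precursor markers stood at 88.0 and 73.2 against 95.0 and 106 CPM, with 0 called. Over all genes tested 9.78% were lower. The part of cell type makeup in the values below was not tested.

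Respiratory chain transcripts were lower in the YTHDF2 pulldown than in the input. The 86 members drew 53949 counts in Input replicate 1, 40938 in Input replicate 2, 9983 in RIP replicate 1 and 10727 in RIP replicate 2. As a share of the counts that were neither mitochondrially encoded nor on the rRNA-like genes, this was 0.528% and 0.440% in the inputs and 0.363% and 0.370% in RIP. Both RIP libraries thus lay below both inputs, at 0.76 of the Input share on average. With 2 libraries against 2, a two-sided exact permutation test cannot go below p = 0.333. As a share of all counts the RIP to Input ratio was 0.377, since the rRNA-like reads filled more of the RIP libraries. The remaining counts were 10216252 and 9296678 in the inputs and 2748522 and 2896783 in RIP. The size of the drop thus depends on the scale. The fold changes below are scaled so that the typical gene lies near 0, and their size cannot be compared with that of these shares.

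Of the 86 members, 80 had enough counts to be tested with edgeR's quasi-likelihood method among 13632 genes. At a Benjamini-Hochberg adjusted p below 0.05, 57 of 80 members were lower in RIP, against 9.78% of all genes tested. In the other direction 1 of 80 was higher, against 3.48% of all genes, and 22 passed in neither direction. Scaled by library size alone, 50 members were lower and 1 was higher, against 7.32% and 6.20% of all genes. At the looser limits of a fold change of 2 and an unadjusted p below 0.05, 65 members were lower against 17.2% of all genes, and 1 was higher against 9.43%. The median log2 fold change, RIP over Input, was -2.12 over the members and -0.05 over all genes tested. On this scale, set by the typical gene, the members' median level was 4.34-fold lower in RIP. In replicate 1 alone the members' median log2 ratio was -2.38 and in replicate 2 alone it was -1.77. Both RIP libraries lay below both inputs for 70 members, against 31.3% of all genes, and above both inputs for 3 members, against 29.6%. A fit with 1 library left out has a single library in 1 group, so no calls are given from it. The members' median log2 fold change was -1.85 or -2.14 without RIP replicate 1 or 2. Without Input replicate 1 or 2 the median was -1.89 or -2.27. The direction did not rest on any 1 library, since between 71 and 77 of the 80 members kept a log2 fold change below 0 whichever library was left out.

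**Figure D1:**
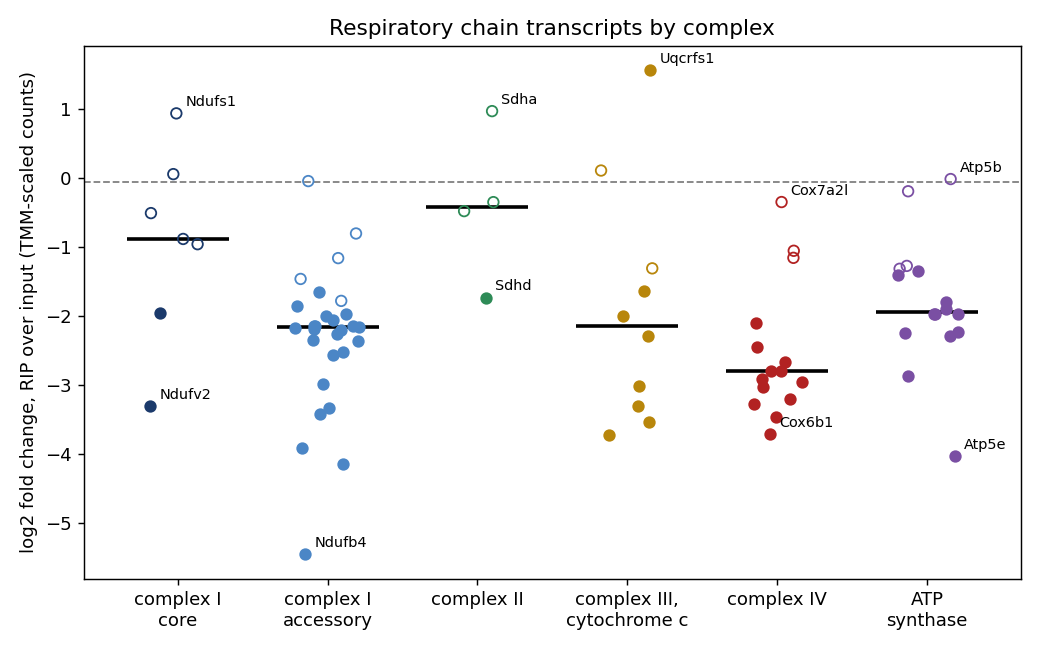
Log2 fold change, RIP over Input, of each of the 80 tested members by complex. Filled circles had an adjusted p below 0.05 (edgeR), open circles did not, black bars are the medians of each complex, and the dashed line is the median of all genes tested (-0.05). Complex IV has the lowest median (-2.80) and complex II the highest (-0.42), with median mRNA lengths of 645 nt and 2065.5 nt.

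Complex I has a catalytic core, of which 7 subunits are nuclear-encoded, and a shell of accessory subunits. Accessory and core transcripts stood at different places. Of the 28 accessory members 23 were lower, with a median log2 fold change of -2.17, and of the 7 core members 2 were lower, with a median of -0.88. The difference between the sets was not tested. Their median mRNA lengths also differed, at 747.5 nt for accessory and 1623 nt for core members. With the trend on mRNA length taken out, 5 of 28 accessory and 1 of 7 core members were lower, against 3.26% of all genes. The medians were then -0.63 and 0.17. Ndufb4, an accessory subunit of the membrane arm (chr16:37647170-37654453, GRCm38, minus strand), had the lowest value of any member. Its level was 13 and 6.88 CPM in the inputs, from 435 and 236 counts, and 0.238 and 0.208 CPM in the pulldowns, from 6 and 5 counts. Every RIP value thus lay far below both inputs, with a log2 fold change of -5.45 (SE 0.561, adjusted p = 0.0013). Another gene matches 40.2% of the Ndufb4 mRNA at 97% identity or more, so reads could have been split between them.

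Ndufb3, also an accessory subunit of the membrane arm, stood at 26 and 29.4 CPM in the inputs and at 1.35 and 1.79 CPM in RIP, a 17.6-fold difference (log2 fold change -4.14, SE 0.39, adjusted p = 0.000997). Ndufa3 was among the most abundant members, with 62.1 and 43.2 CPM in the inputs against 3.53 and 3.45 CPM in RIP (log2 fold change -3.91, SE 0.393, adjusted p = 0.00121). At the other end of the accessory set, Ndufa10, a subunit related to nucleoside kinases, stood at 12.0 and 7.69 CPM in the inputs and 9.20 and 9.85 CPM in RIP. Its RIP values lay between the inputs, and its log2 fold change was -0.05 (SE 0.364, adjusted p = 0.947). Ndufa9 had a log2 fold change of -0.80 (SE 0.378, adjusted p = 0.194), although both of its RIP values were below both inputs.

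In the core, Ndufv2, an iron-sulfur subunit of the NADH-oxidising tip, was lower. Its level was 22.9 and 11.5 CPM in the inputs and 1.82 and 1.66 CPM in RIP (log2 fold change -3.30, SE 0.454, adjusted p = 0.00312). Ndufs8, which carries iron-sulfur clusters close to the quinone site, was the other lower core member, at -1.95 (SE 0.489, adjusted p = 0.0344). That call was lost with scaling by library size alone (adjusted p = 0.0541), without a filter on low counts (0.0687) and with the gene or mRNA length trend taken out (0.508 and 0.356). Ndufv1, the flavin-binding partner of Ndufv2 in the same tip, stood at 4.35 and 2.74 CPM in the inputs and at 3.25 and 4.12 CPM in RIP, with overlapping groups and a log2 fold change of 0.06 (SE 0.414, adjusted p = 0.945). Ndufs1, the largest nuclear-encoded subunit of complex I and a carrier of iron-sulfur clusters, stood apart from these 3. It was at 3.18 and 3.96 CPM in the inputs and 6.98 and 6.69 CPM in RIP, above both inputs, with a log2 fold change of 0.94 that did not pass the adjusted threshold (SE 0.371, unadjusted p = 0.0338, adjusted p = 0.133, edgeR). The gene lies opposite Eef1b2, which held 1728 counts over the 4 libraries against 579 on Ndufs1. The strand setting of the counting is not given in the sources used here, so the origin of reads in the overlap is uncertain.

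**Figure D2:**
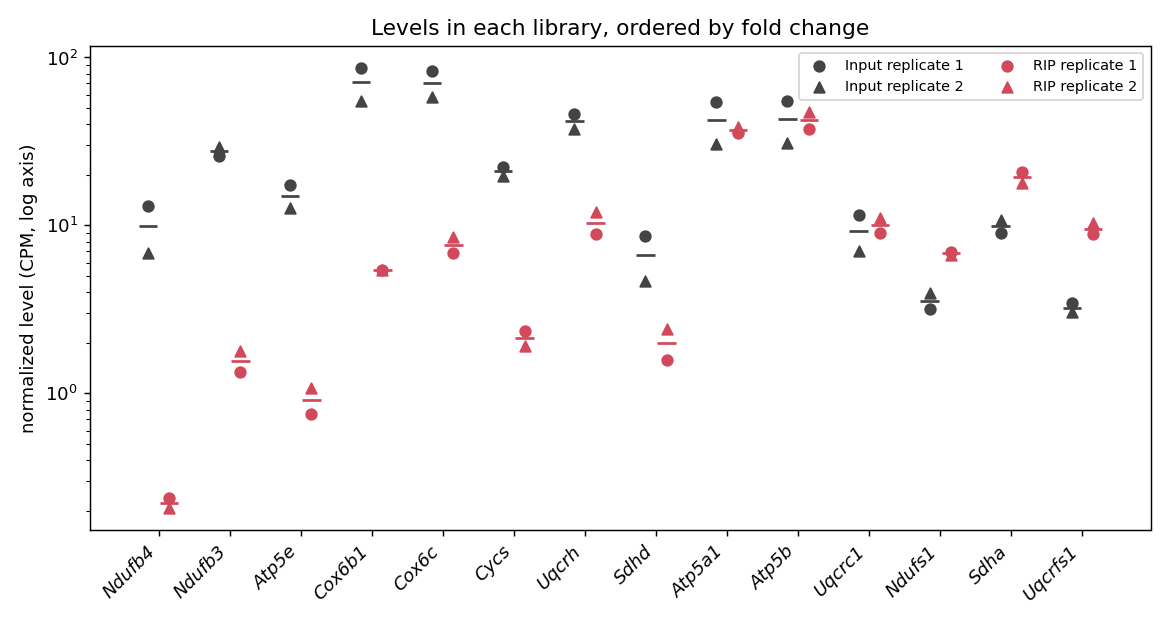
Normalized level in CPM (TMM-scaled, log axis) of 14 members in each library, ordered by fold change from the lowest. Circles are replicate 1, triangles replicate 2, and bars the means of 2. Input and RIP separate fully for Ndufb4 (13 and 6.88 against 0.238 and 0.208 CPM), overlap for Atp5b, and separate the other way for Uqcrfs1 (3.45 and 3.03 against 8.88 and 10.3 CPM).

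Complex II is the only complex of the chain made wholly from nuclear genes, and its 4 mRNAs spanned both directions. Sdhd, a membrane anchor, was at 8.64 and 4.66 CPM in the inputs and 1.59 and 2.41 CPM in RIP and was lower (log2 fold change -1.73, SE 0.464, adjusted p = 0.0423). Its partner anchor Sdhc was at 16.3 and 10.4 CPM against 9.75 and 9.40 CPM, and the iron-sulfur subunit Sdhb at 5.79 and 4.40 CPM against 4.12 and 3.87 CPM. Neither passed the test, with adjusted p = 0.413 for Sdhc and 0.58 for Sdhb. Sdha, the flavoprotein that oxidises succinate, was at 8.97 and 10.8 CPM in the inputs and 20.8 and 17.8 CPM in RIP. Both RIP values were above both inputs, but the log2 fold change of 0.97 did not pass (SE 0.335, adjusted p = 0.0932, unadjusted p = 0.0188, edgeR). The call of Sdhd was lost with scaling by library size alone, where its adjusted p was 0.0715, without a filter on low counts (0.0838), on log2(FPKM + 0.1) values (0.0507) and with the gene or mRNA length trend taken out (0.395 and 0.271).

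Of the 10 transcripts for complex III and cytochrome c, 7 were lower and 1 was higher, with a median log2 fold change of -2.15. The lowest were Uqcrb, a small subunit near the quinone site, and Uqcr11, a small membrane subunit. Uqcrb was at 16.3 and 21.2 CPM in the inputs and 1.59 and 1.25 CPM in RIP, a log2 fold change of -3.72 (SE 0.397, adjusted p = 0.00136). Other genes match 62.8% of its mRNA, so its reads could have been shared. Uqcr11 was at 20.8 and 12.8 CPM against 1.31 and 1.58 CPM, a log2 fold change of -3.54 (SE 0.425, adjusted p = 0.00184). Uqcrh, the hinge protein that helps dock cytochrome c, was the most abundant of the group by FPKM and was also lower, by 4.01-fold. Cycs, the cytochrome c expressed in somatic cells, fell from 22.2 and 19.8 CPM in the inputs to 2.34 and 1.91 CPM in RIP (log2 fold change -3.30, SE 0.369, adjusted p = 0.00152). It has 14 other genes in the annotation with matching stretches, over 33.7% of its mRNA.

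Uqcrfs1, the Rieske iron-sulfur protein that takes electrons from ubiquinol, was the 1 member higher in RIP. It lies at chr13:30540308-30545362 (GRCm38, minus strand). Input replicates 1 and 2 gave 115 and 104 counts, and the less deeply sequenced pulldowns gave 224 and 247, or 3.45 and 3.03 CPM against 8.88 and 10.3 CPM. The RIP level was 2.95 times the Input level (log2 fold change 1.56, SE 0.363, adjusted p = 0.0263), with log2 ratios of 1.35 and 1.74 in replicates 1 and 2. With RIP replicate 1 or 2 left out the log2 fold change of Uqcrfs1 was 1.76 or 1.54. With Input replicate 1 or 2 left out it was 1.66 or 1.46. No other gene matched its mRNA at the identity used. Uqcrc1, a core protein on the matrix side of the same complex, was at 11.5 and 7.02 CPM against 8.96 and 11 CPM, with a log2 fold change of 0.11 (SE 0.378, adjusted p = 0.879).

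Complex IV had the lowest median, -2.80 on the log2 scale over 15 tested members, of which 12 were lower. Cox6b1, a small subunit on the intermembrane side, was at 86.6 and 55.4 CPM in the inputs and 5.39 and 5.40 CPM in RIP (log2 fold change -3.72, SE 0.401, adjusted p = 0.00136). Cox7b, a membrane subunit, was at 22.8 and 20.0 CPM against 1.70 and 2.16 CPM (log2 fold change -3.46, SE 0.376, adjusted p = 0.00136). Per kilobase of representative mRNA, Cox6c was at 140 ± 35.1 CPM per kb in the inputs (SD, n = 2), Cox6b1 at 115 ± 35.8, Cox7c at 108 ± 26.3 and Ndufa3 at 102 ± 26. Differences between these neighbours in level were not tested. The order depended on the length used, since the authors' FPKM values averaged 16.8 for Cox6c and 85.0 for Cox6b1 in the inputs. Cox4i1, the widely expressed form of the largest nuclear-encoded subunit, was at 21.5 and 19.1 CPM in the inputs and 8.36 and 11.1 CPM in RIP. Its log2 fold change of -1.06 did not pass (SE 0.343, adjusted p = 0.0781), and passed with DESeq2 (adjusted p = 0.0469) and edgeR's exact test (0.0451). The gene lies opposite Emc8, which had 1632 counts against 1849. Cox7a2l, which helps join complexes into supercomplexes and is no ordinary subunit, was at 49.9 and 25.8 CPM against 27.7 and 31.7 CPM, with overlapping groups and a log2 fold change of -0.35 (SE 0.397, adjusted p = 0.604).

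Several subunits of complex IV have tissue-restricted forms. The heart and skeletal muscle forms were at or near 0: Cox6a2 had no count in any library, Cox8b had 0, 0, 0 and 2 counts, and Cox7a1 had 11 and 5 counts before the pulldown and 0 and 3 after it. Cox8c and Cox7b2 also had none. Cox4i2, a form known from lung and from low oxygen, was detected. It stood at 7.68 and 4.98 CPM in the inputs and 0.595 and 0.707 CPM in RIP (log2 fold change -3.27, SE 0.461, adjusted p = 0.00347). Per length of mRNA it was at 37.3% and 27.3% of Cox4i1 in the inputs and at 7.42% and 6.62% in RIP, so that the 2 forms were in a different ratio in the pulldown. Whether that ratio differed beyond replicate error was not tested. Ndufa4l2, a form known for its rise in low oxygen, was at 43.3 and 25.1 CPM against 5.07 and 5.74 CPM (log2 fold change -2.66; the gene lies opposite Shmt2, with 1671 counts against 2571), beside its common form Ndufa4 (-2.91, with 21.2 and 16.1 CPM against 1.43 and 3.53 CPM). Cox6b2, best known from testis, was low, at 2.19 and 3.50 CPM in the inputs and 0.238 and 0.457 CPM in RIP (log2 fold change -3.02, SE 0.585, adjusted p = 0.0132). Ndufa4 and Ndufa4l2 carry complex I names and were counted with complex IV, where the Ndufa4 protein is now placed.

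In the ATP synthase 12 of 16 tested members were lower, with a median log2 fold change of -1.94. All 7 subunits outside F1 and the c ring were lower, as were 2 of the 3 genes of the c ring and 3 of the 5 subunits of F1, the part that juts into the matrix. Differences between these sets were not tested. Within F1, Atp5e, its smallest subunit, was at 17.4 and 12.7 CPM in the inputs and 0.753 and 1.08 CPM in RIP (log2 fold change -4.03, SE 0.429, adjusted p = 0.00136). The large subunits that form the catalytic hexamer showed no such gap. Atp5b, the beta subunit, was at 55.2 and 30.8 CPM in the inputs and 37.3 and 47.6 CPM in RIP, and its log2 fold change was -0.02 (SE 0.389, adjusted p = 0.983). Atp5a1, the alpha subunit, was at 54.0 and 30.6 CPM against 35.5 and 38.5 CPM (log2 fold change -0.19, SE 0.379, adjusted p = 0.779). For both, the RIP values lay between the inputs. Of the c ring genes, which encode 1 mature protein, Atp5g2 was at -2.24 and Atp5g1 at -1.97, both lower, and Atp5g3 at -1.27 (adjusted p = 0.0558), which passed with the replicate number as a block (adjusted p = 0.044). Atp5sl matched the names but is no subunit. Atp5s, likewise none, had 8, 14, 4 and 6 counts and was not tested.

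The letters of the mRNAs were read from the GENCODE M21 annotation of GRCm38, with 1 representative mRNA a gene. The sequence GGACT, a frequent form of the site at which m6A is placed, was searched on the sense strand of each mRNA. No methylation was measured in these libraries, and a match is only a run of letters. The windows of 25 bases below are shown for the 3 members above both inputs and for the shortest F1 transcript, with GGACT in capitals. Positions on the genome are GRCm38, minus strand.
Uqcrfs1, 3′ untranslated, chr13:30540710-30540734: ttagacacgtGGACTcagggcctag
Sdha, coding, chr13:74334315-74334339: tgccttgccaGGACTtagaatttgt
Sdha, 3′ untranslated, chr13:74322401-74322425: aaatcagtctGGACTgtataagagc
Sdha, 3′ untranslated, chr13:74322286-74322310: ttgaaatgaaGGACTttaaccagca
Ndufs1, coding, chr1:63159837-63159861: tgcttatgatGGACTaaaacgtcaa
Ndufs1, coding, chr1:63149977-63150001: tcacgcgacaGGACTtgccaaagga
Atp5e, coding, across an exon junction, chr2:174462623-174463982: gcgacaggctGGACTcagctacatc

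The windows show that a member above both inputs and a member far below them can each hold the same 5 letters. Uqcrfs1 and Atp5e hold GGACT once each, Sdha 3 times and Ndufs1 2 times, while the representative mRNAs of Ndufb4 and Ndufb3, the lowest members, hold none. The whole coding sequence of Atp5e, 156 nt without its stop codon, is given to show how little mRNA such a subunit needs, again with GGACT in capitals (chr2:174462506-174463996, GRCm38, minus strand, introns removed).
Atp5e: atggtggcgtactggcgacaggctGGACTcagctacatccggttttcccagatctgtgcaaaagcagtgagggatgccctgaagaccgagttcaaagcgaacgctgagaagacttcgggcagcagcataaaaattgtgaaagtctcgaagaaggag

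At least 1 GGACT was held by 52 of the 80 tested members, or 65.0%, against 92.4% of the 11953 protein-coding genes tested. The members' mRNAs are short, however. Per kilobase they held 1.04 GGACT against 1.09 over all protein-coding genes, and among mRNAs under 1000 nt the shares with at least 1 were 58.3% of members and 57.7% of protein-coding genes. Members that were lower held 1.12 per kilobase, and those that were not held 0.933. The share with at least 1 went the other way, at 61.4% of the lower members (35 of 57) and 73.9% of those not lower (17 of 23). Per kilobase the lower members thus did not hold fewer GGACT, while a smaller share of them held any. These differences were not tested.

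The mRNAs of the members were shorter than those of most other genes. The median representative mRNA of the members was 863 nt, from 371 nt (Atp5k) to 4715 nt (Atp5g1), against 3148 nt over protein-coding genes tested. Their median coding sequence was 426 nt against 1416 nt, while GC content was alike (51.6% and 50.5%). Among members, log2 fold change and mRNA length had a Spearman rho of 0.557 (n = 80 genes), and over all protein-coding genes it was 0.491. For coding length rho was 0.702 and 0.429, for GC content 0.082 over the members, and for the number of GGACT 0.157 and 0.399. These are descriptions across genes that share the same 4 libraries, and genes are not independent replicates.

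**Figure D3:**
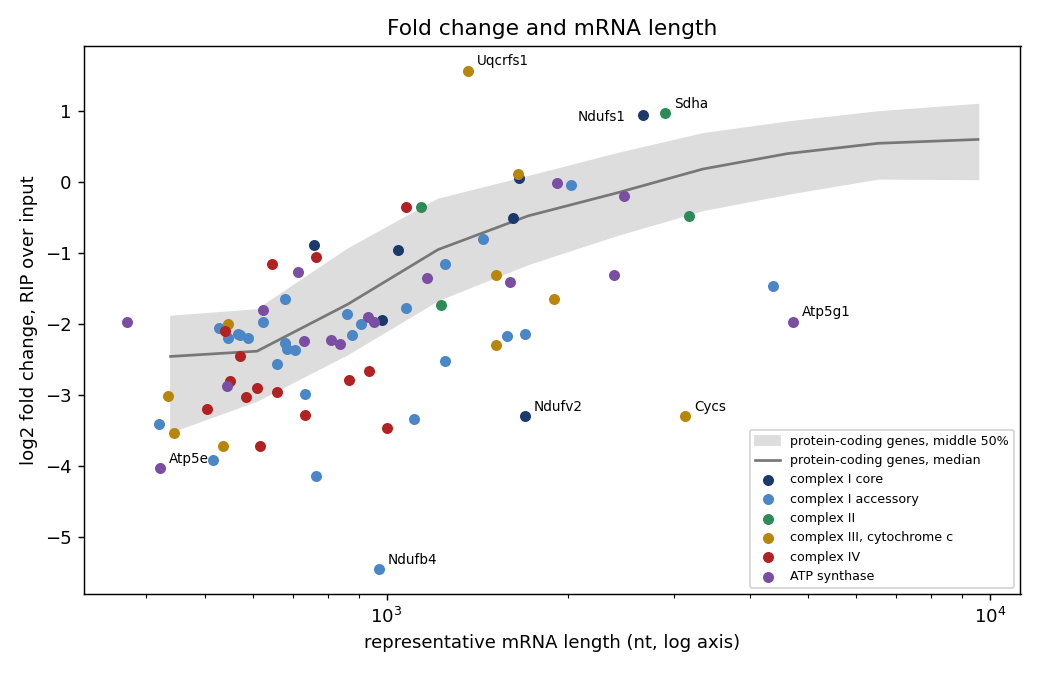
Log2 fold change, RIP over Input, against the length of the representative mRNA (nt, log axis). The grey line and band are the median and middle 50% of protein-coding genes in bins of length, and circles are the 80 members colored by complex. The grey line climbs from -2.46 in the shortest bin to 0.60 in the longest, the members lie around and below it, and Ndufb4, Cycs and Ndufv2 lie far below it while Uqcrfs1 lies above.

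Many short protein-coding mRNAs other than the members were also lower in the pulldown. Under 1000 nt, 44 of 48 members were lower, against 56.1% of 672 protein-coding genes, with medians of -2.28 and -1.97. The 4 short members that did not pass were Ndufs7, Cox5a, Cox4i1 and Atp5g3. From 1000 nt to under 2000 nt, 11 of 23 were lower, against 15.8%, with medians of -1.35 and -0.62. At 2000 nt or more, 2 of 9 were lower (Cycs and Atp5g1), against 2.63%, with medians of -0.48 and 0.24. The class background includes the members themselves. With a coding sequence under 1000 nt, 55 of 69 members were lower, against 21.6% of protein-coding genes, and with 1000 nt or more, 2 of 11 were (Ndufv3 and Uqcrc2), against 2.04%. Members with long coding sequences that did not pass included Ndufa9, Ndufa10, Ndufs1, Ndufv1, Sdha, Uqcrc1, Atp5a1 and Atp5b, among them the catalytic subunits described above.

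When the trend of counts on mRNA length was taken out of each library, a step added after the values were seen, 12 members were lower, against 3.26% of all genes, and 1 was higher, against 1.75%. The members' median log2 fold change was then -0.67, and that of all genes 0.01. The 12 were Ndufv2 of the core, the accessory subunits Ndufb4, Ndufb3, Ndufa3, Ndufa12 and Ndufv3, Cycs and Uqcrq, Cox6b1 and Cox7b, and Atp5e and Atp5g1. Ndufb4 kept a log2 fold change of -4.19 (adjusted p = 0.00581), and Ndufv2 one of -2.75 (adjusted p = 0.0132). Cycs, with a representative mRNA of 3123 nt, moved little, from -3.30 to -3.37 (adjusted p = 0.00485), and Uqcrfs1 stood at 2.33 (adjusted p = 0.0132). For Cox7c, by contrast, the log2 fold change went from -2.10 to -0.01 (adjusted p = 0.991). Lengths come from 1 mRNA a gene, and the counts do not separate isoforms, so the values of Cycs and Atp5g1, whose representative mRNAs have long untranslated parts, depend on that choice.

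**Figure D4:**
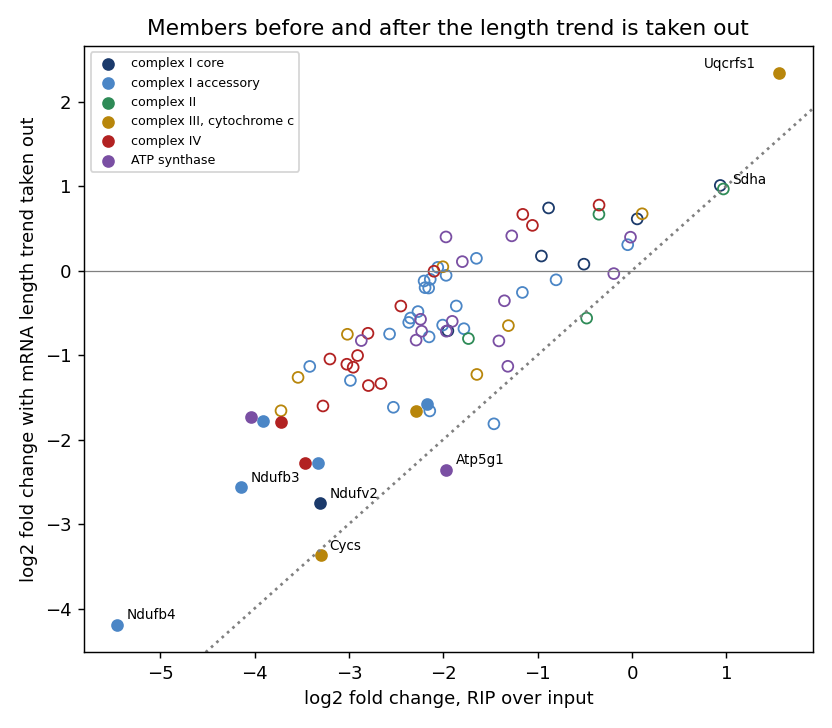
Log2 fold change, RIP over Input, of the 80 members as measured (horizontal) and with the mRNA length trend taken out (vertical). Filled circles had an adjusted p below 0.05 after the trend was taken out, and the dotted line marks equal values. Most members move up toward 0, 12 stay lower, Cycs and Ndufv2 stay near the dotted line, and Uqcrfs1 is the only one higher.

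Other mitochondrial transcripts did not all follow the nuclear-encoded subunits. All 13 mitochondrially encoded subunits were lower, with a median log2 fold change of -5.37, from -3.15 (mt-Nd6) to -7.85 (mt-Atp6). These RNAs stay inside the organelle. Of 48 tested assembly factors, 10 were lower and 3 were higher, with a median of -0.34. The counts of this list and those below stand beside 9.78% lower and 3.48% higher over all genes, to which 3 of 48 and the 1 of 17 below come near. The 3 were Lrpprc, which stabilises mitochondrial mRNAs (log2 fold change 2.42), and the complex IV assembly genes Coa5 (1.81) and Cox19 (1.34). Of 17 citrate cycle and pyruvate dehydrogenase genes 1 was lower, Idh3a, a subunit of the NAD-dependent isocitrate dehydrogenase (-1.65), and the median was -0.55. Of 23 import and carrier genes 8 were lower, with a median of -0.89, the lowest being Tomm7, a small subunit of the outer membrane translocase (-3.38). Of 11 regulators of mitochondrial gene expression, edgeR's quasi-likelihood test called 0 in either direction, DESeq2 called 1 (Yy1) and edgeR's exact test 2 (Yy1 and Polrmt). At an unadjusted p below 0.05, 3 regulators differed in the quasi-likelihood test, and the median was 0.25. The median mRNA lengths of these lists ran from 784 nt for the mitochondrially encoded subunits, through 1515 nt for import and carriers, 1781 nt for assembly factors and 2544 nt for the citrate cycle, to 3755 nt for the regulators.

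**Figure D5:**
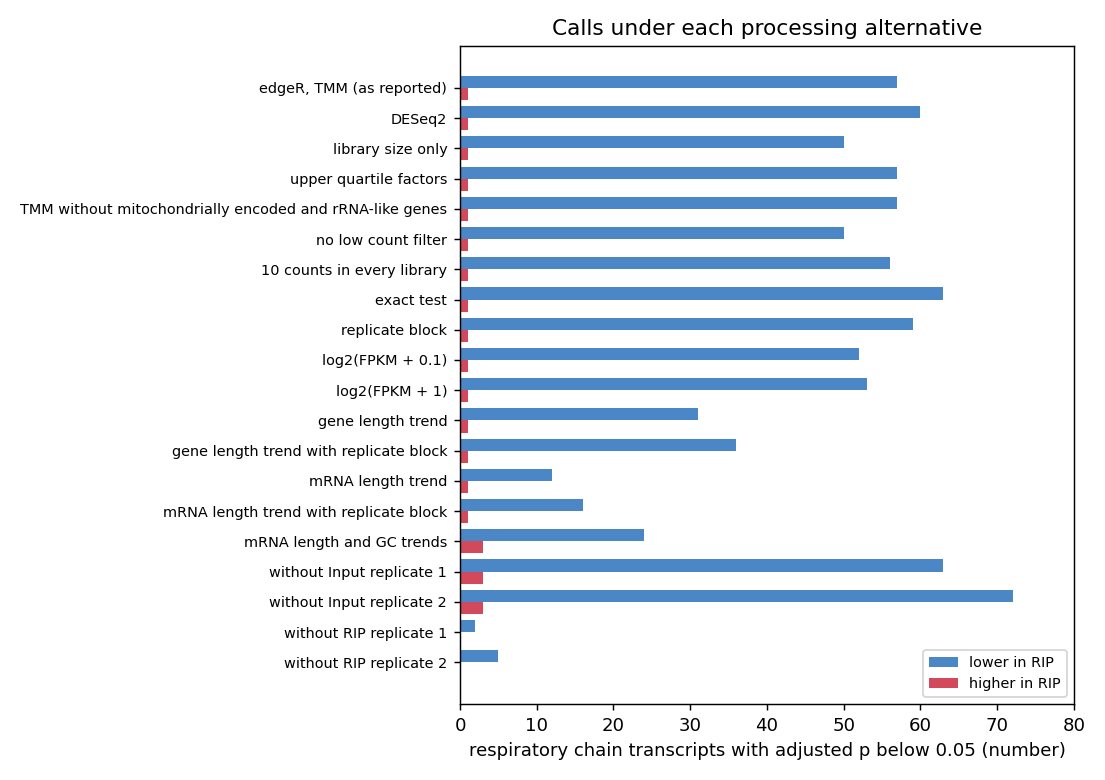
Number of the respiratory chain members with an adjusted p below 0.05 under each processing alternative, lower in RIP (blue) and higher in RIP (red). The count of lower members lies between 50 and 63 for the settings that keep all 4 libraries and leave length in, and between 12 and 36 where a length trend was taken out. Bars with a library left out rest on a single library in 1 group and are not read here.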

How the data were processed

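RNA of the input and of the anti-YTHDF2 pulldown was measured by sequencing in 2 replicates each. The authors deposited raw counts per gene and FPKM values, scaled by the authors for gene length and library size. The submitters' processing notes name STAR 2.5, HTSeq and GRCm38. Annotation, strand setting and FPKM tool are not given in the sources used here. All sample columns were used.

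Members and lists were chosen with earlier results of these data known. Counts were filtered (filterByExpr, minimum count 10, total 15), scaled by TMM and tested with edgeR 4.0.16 (glmQLFit, glmQLFTest, R 4.3.3), with p-values adjusted by Benjamini-Hochberg over all 13632 genes tested. p-values measure the spread between 2 libraries a group. Named were, in each complex, the 2 lowest, the 2 highest and the 2 with most FPKM in the inputs, all of complex II, members called higher, and tissue-restricted forms with their common forms. Of these, 1 member is counted but not reported here by name. Cycs, Cox6c, Cox7c, Ndufa12, Ndufv3, Uqcrq, Uqcrc2, Atp5g1, Atp5g2, Atp5g3, Ndufs7 and Cox5a, and the genes of other lists, were chosen after their values were seen.

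GENCODE M21 held all 86 members. Trends on length and GC content were fitted with mgcv 1.9.3 (basis size 8) and used as offsets. The trend on mRNA length and that on GC content were added after the values were seen. Copies were sought with BLAST 2.17.0 (97% identity, 100 nt). Alternatives were DESeq2 1.42.0, other scalings and filters, edgeR's exact test, limma 3.58.1 on log2 FPKM (pseudocount 0.1 or 1, mean FPKM of at least 0.1) and leaving out each library. Each fit was also run on simulated counts with a fixed dispersion and 200 changed genes. That simulation held no length trend and no other difference in makeup between Input and RIP, so it cannot check the calls above. The series' design text gives every replicate an input and a pulldown, so the numbers pair the libraries, although replicate differences of input and RIP had a Pearson r of -0.0282 over 13632 genes and 0.067 over the 80 members.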

Additional observations from a re-analysis of the deposited data

How the results depend on the processing

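The number of members lower in RIP (57) was 60 with DESeq2, 63 with the exact test, 50 with library size scaling or without a filter on low counts, 56 with at least 10 counts in every library, and 52 and 53 on log2(FPKM + 0.1) and log2(FPKM + 1). The share of all genes lower was 9.87% with DESeq2, 13.8% with the exact test, 7.32% with library size scaling and 3.81% without the filter. It was 11.5% with at least 10 counts, and 9.13% and 9.19% on the FPKM values. The number of lower members fell to 31 with the trend on gene length taken out, against 5.13% of all genes. That length was recovered from counts and FPKM, on the median 1.54 times the mRNA length. With the trend on mRNA length the number was 12, against 3.26%, and with those on mRNA length and GC content 24, against 7.48%. Members lower at the looser limits (a fold change of 2, unadjusted p below 0.05; 65) were then 40, 27 and 25, and the median log2 fold change (-2.12) was -1.01, -0.67 and -0.71, and -1.39 on log2(FPKM + 1), where the pseudocount damps low genes. Members higher at those limits (1) were 3 with library size scaling, without the filter and on log2(FPKM + 0.1), and 2 with the mRNA length trend, with or without GC content. The share of all genes at the looser limits is given only for the fit reported above, at 17.2% lower and 9.43% higher. For the other settings, with or without the replicate block, no such share is given. Their counts at these limits are thus not read against a background. With GC content 3 members were higher at the adjusted threshold, against 5.35% of all genes. Library size scaling set the median of all genes at 0.27 in place of -0.05. The share of counts on members was 0.377 of the input share over total counts.

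With the replicate block, 59 members were lower: none of the 57 was lost, and Ndufb5 and Atp5g3 were gained. The block gave 36 lower with the gene length trend (40 at the looser limits, median -0.998) and 16 with the mRNA length trend (27, 2 higher at those limits, median -0.67). Over all genes 11.8% were lower with the block, and 7.56% and 5.29% with the block and the gene or mRNA length trend. Without a length trend, the block changed no other call among the members.

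Leaving out each library in turn gave 2 to 72 lower and 0 to 3 higher members, 52 to 67 and 1 to 3 at the looser limits, and medians of -2.27 to -1.85. Signs turned only for members without a call, with log2 fold changes of -0.55 to 0.27 for Atp5a1, -0.38 to 0.47 for Atp5b, -0.75 to 0.20 for Cox7a2l, -0.34 to 0.31 for Ndufa10, -0.25 to 0.43 for Ndufv1 and -0.21 to 0.51 for Uqcrc1.

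Other signs that turned among the members named by the rule given above, none with an adjusted p below 0.05 after turning, were these. Library size scaling put Atp5a1 at 0.16, Atp5b at 0.32 and Ndufa10 at 0.30. On log2(FPKM + 0.1) they stood at 0.13, 0.29 and 0.24, and on log2(FPKM + 1) at 0.12, 0.27 and 0.18. Without the filter Atp5b was 0.089 and Ndufa10 0.054, with at least 10 counts Ndufv1 was -0.012, and with the block Atp5b was 0.033. The gene length trend gave 0.070 for Atp5a1, 0.046 for Atp5k, 0.93 for Cox7a2l, 0.15 for Ndufa10 and 0.20 for Sdhb, and with the block 0.10, 0.038, 0.96, 0.16 and 0.20, with Atp5b at 0.016. The mRNA length trend gave 0.39 for Atp5b, 0.10 for Atp5h, 0.40 for Atp5k, 0.53 for Cox4i1, 0.77 for Cox7a2l, 0.31 for Ndufa10, 0.67 for Sdhb and 0.044 for Uqcrh. With the block these were 0.42, 0.11, 0.39, 0.53, 0.81, 0.32, 0.66 and 0.038, with Atp5a1 at 0.0058, and with GC content 0.38, 0.13, 0.31, 0.34, 0.80, 0.27, 0.56 and 0.082. Among members mentioned for other reasons, the mRNA length trend also turned Atp5g3 to 0.41, Cox5a to 0.66, Ndufs7 to 0.74 and Ndufs3 to 0.17. The causes were not tested.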

Other observations

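Members with and without close copies elsewhere in the genome were lower. Of the 50 members without a matching gene 36 were lower, with a median log2 fold change of -2.14, and of the 8 with matches over at least 50% of the mRNA (Atp5f1, Atp5g2, Atp5h, Atp5l, Atp5o, Cox7c, Ndufs3 and Uqcrb) 7 were lower, with a median of -2.17. These counts are descriptions with no test.

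The inputs differed from each other on these genes more than the pulldowns did. Input replicate 2 lay below Input replicate 1 by a median of 0.50 on the log2 scale over the members (log2 ratio -0.50) and by less over all genes tested (-0.16). RIP replicate 2 lay above RIP replicate 1 by a median of 0.22 over the members. Cox7a2l stood at 143% and 89.1% of Cox7a2 per length of mRNA in Input replicates 1 and 2 and at 764% and 687% in RIP replicates 1 and 2, the widest shift of the 4 pairs of related forms compared.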
